A study of Mus musculus with 54 samples.

Results

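The 9 genes described here encode the adaptors and enzymes of the LAT signalosome, the protein assembly that forms on the transmembrane adaptor LAT when the T cell antigen receptor (TCR) is engaged. They were taken as a fixed list of names, Lat, Lcp2, Grap2, Grb2, Grap, Sos1, Vav1, Plcg1 and Themis, out of 55385 genes in the count tables, and each was found once in both tables and in all 54 libraries. All 9 passed the filter of at least 1 read in total and the stricter filterByExpr filter of edgeR in both experiments, so none was lost to low counts.

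The libraries came from mouse CD4+ T cells that had been purified as naive cells from pooled lymph nodes and spleens of C57BL/6 mice, 8 to 10 weeks old. Cells were taken unstimulated (0 h) or after 4 h or 20 h with anti-CD3 bound to the plate (3 µg/ml) and anti-CD28 (1 µg/ml), antibodies that engage the TCR complex and its costimulatory receptor. In the CD5/CD6 experiment, cells were wild type (WT), Cd5-/-, Cd6-/- or Cd5-/-Cd6-/-, the last carrying a single deletion over both neighbouring genes, and were isolated with magnetic beads. In the LAT experiment, the WT (hDTR+) and Lat-/- (hDTR-) cells were both sorted from Lat fl-dtr maT-Cre mice, in which the maT-Cre transgene deletes a floxed Lat allele in part of the T cells, so the WT cells of that experiment carried the undeleted floxed allele. Each of the 12 and 6 groups had 3 libraries, described as biological replicates.

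On TCR engagement the kinase ZAP-70 phosphorylates tyrosines in the tail of LAT. GRB2-family adaptors bind these tyrosines by their SH2 domains: GRB2 brings the Ras exchange factor SOS1, and GADS (encoded by Grap2) brings SLP-76 (encoded by Lcp2), which in turn holds VAV1 and the phospholipase PLC-γ1. PLC-γ1 makes the second messengers for calcium and protein kinase C signals, and VAV1 is an exchange factor that acts on the actin cytoskeleton, while THEMIS, a GRB2-bound protein of the T lineage, sets signal strength during thymic selection. All of this is regulation of proteins, and the measurements below are of their mRNAs.

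Libraries of the LAT experiment held 17784644 to 28501095 counted reads, and those of the CD5/CD6 experiment 20554354 to 45222554. Levels are CPM, read counts scaled to the size of the library with TMM factors, that is, shares of a library's reads and not amounts per cell, and in cell populations fewer cells of a type cannot be told apart from less RNA per cell. In the CD5/CD6 experiment, 2 of the 0 h libraries went against their labels. The library labelled Cd5-/- replicate 2 had a Cd5 level of 719 CPM and a Cd6 level of 329 CPM, whereas replicates 1 and 3 had Cd5 levels of 129 and 105 CPM and Cd6 levels of 1298 and 1084 CPM. The library labelled Cd6-/- replicate 2 had 172 CPM of Cd5 and 1203 CPM of Cd6, whereas its replicates 1 and 3 had 724 and 719 CPM of Cd5 and 349 and 251 CPM of Cd6. Both libraries were kept as labelled, and results that rest on them are also given without them. Naive CD4+ cell markers (Cd3e, Cd3d, Cd4, Trac and Ccr7) were present in every group, with sums between 4201 and 6352 CPM at 0 h. In the CD5/CD6 experiment, however, the sum of 3 B cell markers (Ms4a1, Cd79a and Cd79b) fell from 70.8 to 423 CPM in WT at 0 h to 1.72 to 3.04 CPM at 20 h and the sum of 4 myeloid markers from 95.3 to 235 CPM to 2.02 to 3.21 CPM, whereas in the LAT experiment neither sum exceeded 5.70 CPM in any library. The part of these cells in the member responses of the CD5/CD6 experiment was not tested.

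The upstream sequences of Lat and of the members that moved furthest in stimulated cells are shown so that the mRNA responses can be read beside the DNA next to each start site. Each is the 250 bases before a RefSeq transcription start (GRCm38.p6), written 5′ to 3′ on the strand of the gene, and capitals mark exact matches on either strand to the letters of 6 motifs. These were AP-1 (TGANTCA), NFAT (GGAAAA), ETS (AGGAAG), RUNX (TGTGGT), the MYC E-box (CACGTG) and SP/KLF (GGGCGG), and no matched stretches of different motifs overlapped in the 4 windows.
Lcp2, chr11:34046678-34046927, plus strand: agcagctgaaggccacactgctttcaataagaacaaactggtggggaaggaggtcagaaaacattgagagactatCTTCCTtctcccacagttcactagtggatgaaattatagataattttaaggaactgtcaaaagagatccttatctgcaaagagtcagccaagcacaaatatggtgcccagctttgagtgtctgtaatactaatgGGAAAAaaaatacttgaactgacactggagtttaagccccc
Lat, chr7:126369569-126369818, minus strand: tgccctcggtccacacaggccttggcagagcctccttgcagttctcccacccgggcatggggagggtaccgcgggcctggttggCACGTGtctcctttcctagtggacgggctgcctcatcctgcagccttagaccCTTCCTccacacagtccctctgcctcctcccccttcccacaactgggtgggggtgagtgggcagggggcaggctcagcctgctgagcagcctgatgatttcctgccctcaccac
Grap2, chr15:80623233-80623482, plus strand: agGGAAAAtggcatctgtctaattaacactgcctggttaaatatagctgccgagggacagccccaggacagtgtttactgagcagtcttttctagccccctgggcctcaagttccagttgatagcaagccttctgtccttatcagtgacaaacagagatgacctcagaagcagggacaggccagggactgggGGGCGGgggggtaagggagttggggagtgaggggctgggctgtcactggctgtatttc
Themis, chr10:28668110-28668359, plus strand: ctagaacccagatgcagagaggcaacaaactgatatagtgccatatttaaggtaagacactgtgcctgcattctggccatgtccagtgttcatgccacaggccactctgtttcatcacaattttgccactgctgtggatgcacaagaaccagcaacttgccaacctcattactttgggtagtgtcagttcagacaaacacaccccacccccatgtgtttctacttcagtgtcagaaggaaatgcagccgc

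Lcp2, the gene with the largest rise, held 1 NFAT match, whose leftmost base lies at -41 from the start, and 1 ETS match at -175. The Lat window held an ETS match at -114 and an E-box at -166. In Grap2, whose RefSeq start lies inside the gene as annotated in the count tables, the letters of NFAT stood at -248 and those of SP/KLF at -58. The Themis window, from the gene that fell furthest at 4 h, held none of the 6. These letters are common: over 32851 RefSeq promoter windows of the same length, the AP-1 letters were found in 6.75%, NFAT in 20.4%, ETS in 29.5%, RUNX in 14.0%, the E-box in 6.02% and SP/KLF in 32.7%. The matches describe the windows and do not show binding.

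The first comparison asked how stimulation changed the members in WT cells, in 2 experiments that shared no libraries. In both, Lcp2 rose about 4-fold by 4 h and was back near its starting level at 20 h, while Themis, Grap2 and Plcg1 had fallen by 4 h and stayed low. Grb2, Vav1 and Sos1 fell less, and Lat was lower at 20 h than at 0 h in both. At 4 h in the CD5/CD6 experiment 2 members had risen and 4 had fallen at an adjusted p under 0.05 (edgeR quasi-likelihood test, Benjamini-Hochberg adjustment over all genes tested), against 28.5% of all 32290 genes called, and in the LAT experiment 1 had risen and 4 had fallen, against 29.0% of 27780 genes. At 20 h against 0 h 2 had risen and 7 had fallen, against 37.9% of genes, and in the LAT experiment 8 had fallen and none had risen, against 34.7%. The median log2 change of the members at 20 h was -0.73 in the CD5/CD6 experiment and -0.77 in the LAT experiment. The median of all genes tested was 0 in both, and that of the genes left by filterByExpr was -0.16 and -0.08.

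Lat, the scaffold of the assembly (chr7:126363824-126369570, minus strand), was measured at 671, 649 and 792 CPM in the 3 WT libraries of the CD5/CD6 experiment at 0 h, 1248, 1077 and 1345 CPM at 4 h and 459, 506 and 631 CPM at 20 h. All 4 h libraries were above all 0 h libraries, a log2 change of 0.80 ± 0.17 (SE, n = 3, edgeR adjusted p = 6.9e-05), and no 20 h library was above the lowest 0 h library, a log2 change of -0.40 ± 0.17 (edgeR adjusted p = 0.049, and 0.23 without libraries 1). In WT cells of the LAT experiment Lat stood at 292, 214 and 241 CPM at 0 h, 314, 351 and 262 CPM at 4 h and 97.3, 105 and 92.2 CPM at 20 h. The 0 h and 4 h libraries overlapped there (log2 change 0.31 ± 0.15, edgeR adjusted p = 0.11), and the fall by 20 h was deeper, at -1.34 ± 0.15 (edgeR adjusted p = 1.6e-17). Every WT library of the LAT experiment also held less Lat than every WT library of the other experiment at the same time. The tables were normalized separately and the allele, the sort and the experiment differ together between these groups, so their parts cannot be told apart.

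Lcp2 encodes SLP-76, the adaptor that joins GADS to PLC-γ1 and VAV1 (chr11:34046920-34092295, plus strand). It was at 397, 391 and 420.2 CPM at 0 h, 1649.6, 1687 and 1683 CPM at 4 h and 488, 569 and 476 CPM at 20 h in the CD5/CD6 experiment. In the LAT experiment the WT libraries gave nearly the same series, with 457, 456 and 434 CPM, then 1908, 1858 and 1732 CPM, then 524, 585 and 508 CPM. No 4 h library came near any other, and the log2 rise at 4 h was 2.05 ± 0.15 (edgeR adjusted p = 9.6e-21) and 2.03 ± 0.15 (edgeR adjusted p = 3.4e-39). By 20 h the difference from 0 h was small, 0.34 ± 0.14 in the CD5/CD6 experiment (edgeR adjusted p = 0.046) and 0.26 ± 0.15 in the LAT experiment, where it did not pass (edgeR adjusted p = 0.17). The first of these no longer passed in 5 of 9 alternatives and was 0.19 without libraries 2 (edgeR adjusted p = 0.58).

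Grap2 encodes GADS, the adaptor between LAT and SLP-76 (chr15:80572594-80652854, plus strand). Its WT libraries held 608, 655 and 586 CPM at 0 h, 99.1, 139.6 and 112 CPM at 4 h and 162, 118 and 98.0 CPM at 20 h in the CD5/CD6 experiment. Those of the LAT experiment held 680.5, 436 and 647 CPM, 144, 176 and 256 CPM and 211, 211 and 197 CPM. The lowest 0 h library lay above every stimulated one in both experiments, and 0 h library 2 of the LAT experiment was the lowest of its group for Lat, Grap2, Plcg1, Sos1 and Themis. The log2 change at 4 h was -2.40 ± 0.20 (edgeR adjusted p = 1.4e-17) and -1.61 ± 0.15 (edgeR adjusted p = 2.1e-25), and it was still -2.29 ± 0.20 and -1.51 ± 0.15 at 20 h. GADS and SLP-76 transcripts thus moved in opposite directions at 4 h, in each of the WT groups.

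Of the remaining GRB2-family members, Grb2, the adaptor that carries SOS1 (chr11:115644045-115708597, minus strand), fell modestly, from 209, 169 and 206 CPM to 124, 111 and 136 CPM at 4 h and 117, 115 and 120.1 CPM at 20 h in the CD5/CD6 experiment. The WT libraries of the LAT experiment ran from 172, 189 and 189 CPM to 119, 117 and 138 CPM and 122, 122 and 127 CPM. The 0 h groups stood clear of the stimulated groups in both, with log2 changes of -0.65 ± 0.14 and -0.56 ± 0.15 at 4 h (edgeR adjusted p = 0.00015 and 0.00098). Grap, a close relative of Grb2 (chr11:61653265-61672784, plus strand), rose to 322, 344 and 339 CPM at 20 h from 237, 245 and 297 CPM in the CD5/CD6 experiment, a log2 change of 0.37 ± 0.15 (edgeR adjusted p = 0.043). In the LAT experiment it fell, from 345, 416 and 313 CPM at 0 h to 278, 276 and 284 CPM at 20 h, a change of -0.36 ± 0.15 (edgeR adjusted p = 0.044). Both Grap calls were close to the threshold: the rise no longer passed in 5 of 9 alternatives, among them without libraries 1 or 2 (edgeR adjusted p = 0.26 and 0.42), and the fall in 3 of 9, among them without libraries 1 or 2 (edgeR adjusted p = 0.21 and 0.19). At 4 h neither change in Grap passed, with 316, 367 and 294 CPM and 432, 367 and 441 CPM in the experiments in turn (edgeR adjusted p = 0.10 and 0.35). The difference between the experiments in the Grap response was not tested.

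Sos1, the exchange factor that loads Ras with GTP (chr17:80393751-80480453, minus strand), had the lowest level per length of all members at 0 h. It went from 57.9, 54.5 and 52.2 CPM at 0 h to 45.2, 51.7 and 34.3 CPM at 4 h and 30.9, 27.5 and 17.7 CPM at 20 h in the CD5/CD6 experiment, and from 52.7, 26.2 and 55.5 CPM to 32.8, 39.6 and 36.4 CPM and 27.9, 27.7 and 23.1 CPM in WT cells of the LAT experiment. The highest 4 h library lay just under the lowest 0 h library in the first and the groups overlapped in the second, and neither 4 h change passed (edgeR adjusted p = 0.27 and 0.16). By 20 h Sos1 had fallen by 1.11 on the log2 scale in the CD5/CD6 experiment (SE 0.20, edgeR adjusted p = 3.6e-06) and by 0.77 in the LAT experiment (SE 0.16, edgeR adjusted p = 9.0e-06), where 0 h library 2 lay among the 20 h libraries.

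Vav1, the exchange factor held by SLP-76 (chr17:57279100-57328031, plus strand), was lowest at 20 h. It was at 243, 272 and 271 CPM at 0 h, 218, 239 and 213 CPM at 4 h and 176, 182 and 141 CPM at 20 h in the CD5/CD6 experiment. In the LAT experiment the series was 296, 299 and 275 CPM, 248, 239.8 and 267 CPM and 197, 198 and 176 CPM. The 20 h libraries were below all others in both, with log2 changes from 0 h of -0.66 ± 0.15 (edgeR adjusted p = 0.00010) and -0.61 ± 0.15 (edgeR adjusted p = 0.00020). All 4 h libraries were below all 0 h libraries in both, but the 4 h changes did not pass (edgeR adjusted p = 0.28 and 0.37). They did with library totals without factors (edgeR adjusted p = 0.0029 and 0.0098) and, in the CD5/CD6 experiment, with DESeq2 (adjusted p = 0.031).

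Plcg1, the phospholipase of the assembly (chr2:160731300-160775760, plus strand), held 288, 344 and 271 CPM at 0 h, 131, 145 and 101 CPM at 4 h and 119, 87.0 and 59.2 CPM at 20 h in the CD5/CD6 experiment. The WT libraries of the LAT experiment held 360.2, 233 and 306 CPM, 118, 114 and 125 CPM and 114, 119 and 103 CPM. All 0 h libraries were above all stimulated ones. The log2 change was -1.26 ± 0.21 at 4 h and -1.77 ± 0.21 at 20 h in the first (edgeR adjusted p = 5.5e-07 and 3.2e-11) and -1.33 ± 0.15 and -1.42 ± 0.15 in the second (edgeR adjusted p = 2.1e-17 and 7.6e-20). Of the Plcg1 exon bases, 4.82% overlap Zhx3 and 3.16% overlap Gm27206 on the opposite strand. Of those of Lcp2, 6.32% overlap 4930469K13Rik, a gene with at most 778 reads in an experiment. The use of strand in counting is not given in the sources used here.

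Themis (chr10:28668360-28883818, plus strand) had the largest fall at 4 h in both experiments. Its WT libraries held 265, 254 and 241 CPM at 0 h, 25.9, 36.2 and 40.3 CPM at 4 h and 58.1, 48.1 and 40.9 CPM at 20 h in the CD5/CD6 experiment. In the LAT experiment they held 205, 176 and 239.7 CPM, 38.3, 36.2 and 67.5 CPM and 80.3, 87.0 and 72.1 CPM. The 4 h log2 change was -2.89 ± 0.19 (edgeR adjusted p = 1.8e-22), a 7.41-fold fall, in the first experiment and -2.13 ± 0.16 (edgeR adjusted p = 8.8e-41) in the second. It was the single member that rose from 4 h to 20 h, by 0.52 ± 0.18 on the log2 scale (edgeR adjusted p = 0.017, and 0.22 with adjusted p = 0.63 without libraries 1) and 0.75 ± 0.15 (edgeR adjusted p = 4.7e-06).

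Between 4 h and 20 h, 1 member rose and 4 fell in WT in the CD5/CD6 experiment, against 30.5% of all genes called, and 1 rose and 5 fell in the LAT experiment, against 29.5%. Lat, Lcp2, Vav1 and Sos1 fell in both, Lcp2 by 1.71 and by 1.76 on the log2 scale and Lat by 1.20 and by 1.65. Of these, the falls of Vav1 and Sos1 in the LAT experiment no longer passed in 4 and 5 of 9 alternatives, and both were lost without libraries 1 (edgeR adjusted p = 0.24 and 0.098) or 3 (edgeR adjusted p = 0.23 and 0.16). The fall of Vav1 in the CD5/CD6 experiment was lost without libraries 1 or 2 (edgeR adjusted p = 0.082 and 0.11). It was also lost with library totals without factors (edgeR adjusted p = 0.053). Calls near the threshold moved with the gene filter: with filterByExpr the 4 h count in the CD5/CD6 experiment became 7 of 9, against 58.7% of 16143 genes, by the addition of Grap (edgeR adjusted p = 0.0048). The 20 h count there became 8 of 9, against 74.2%, by the loss of Lat (edgeR adjusted p = 0.057). The 20 h count in the LAT experiment became 9 of 9, against 67.9% of 13928 genes, by the addition of Lcp2 (edgeR adjusted p = 0.028). 

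**Figure D1:**
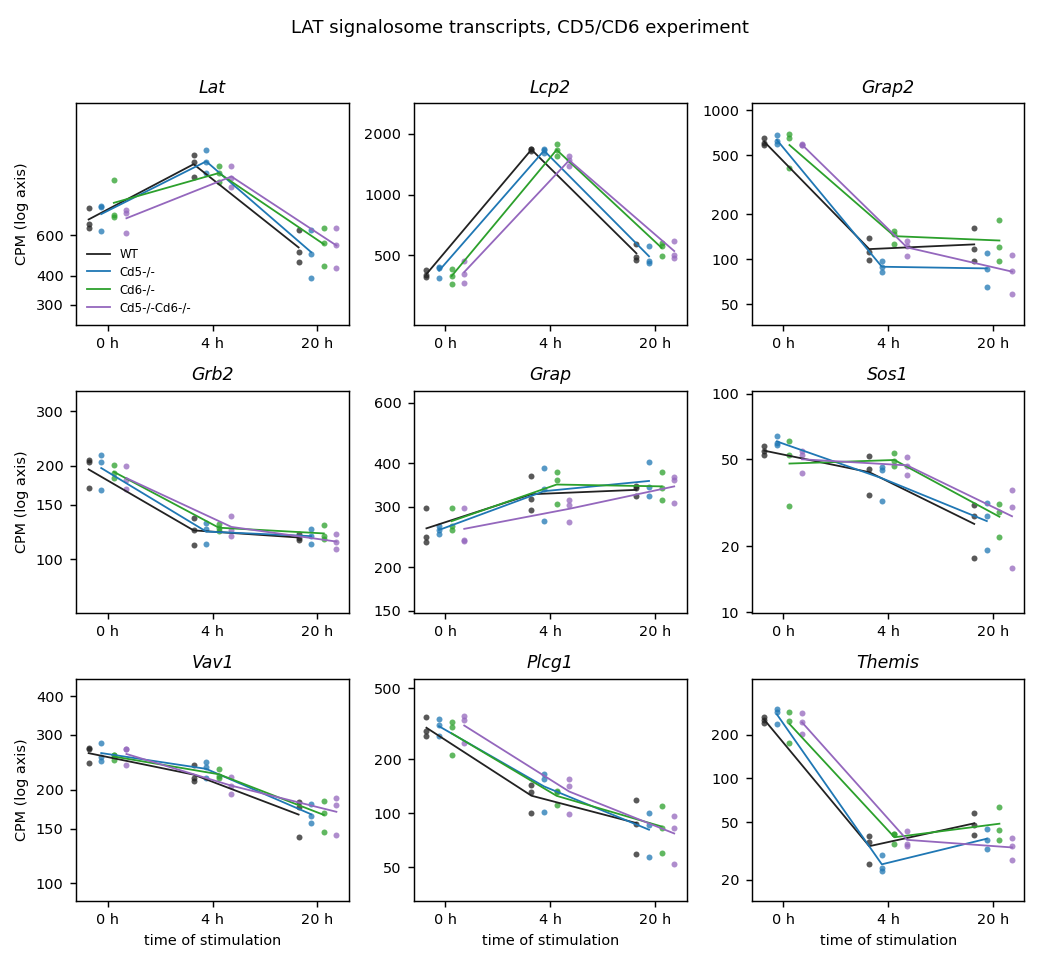
CPM of the 9 members (log axis) at 0, 4 and 20 h (spaced evenly, not to scale) in the CD5/CD6 experiment; points are single libraries (3 per group), lines join the means, and colours are the 4 genotypes. In each of the 4 genotypes mean Lcp2 rises at 4 h and comes down by 20 h, while Grap2, Plcg1 and Themis fall.

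The order of the members per length was compared as CPM per kilobase of exon (RPKM). In the WT libraries of the CD5/CD6 experiment at 0 h it ran from Lat at 254 RPKM through Grap at 145, Grap2 at 98.7, Lcp2 at 90.4, Vav1 at 71.1, Grb2 at 66.7, Plcg1 at 38.3 and Themis at 21.7 to Sos1 at 5.18 RPKM. Neighbours were apart in all 3 libraries of each except Grap2 and Lcp2, and Vav1 and Grb2, whose libraries overlapped. At 4 h Lcp2 (375 RPKM) stood in second place after Lat (442 RPKM), and Grap2 (18.7 RPKM) and Themis (2.92 RPKM) had dropped to sixth and last, although the libraries of Grap2 overlapped those of Plcg1 and the libraries of Themis those of Sos1. In WT cells of the LAT experiment at 0 h Grap was first, at 199.5 RPKM, and Lat, at 89.9 RPKM, could not be set apart from its neighbours Grap2 (94.1 RPKM) and Vav1 (78.7 RPKM). Sos1 was last in both experiments at 0 h, with 4.23 RPKM in WT cells of the LAT experiment.

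The 3 GRB2-family adaptors Grb2, Grap and Grap2 have the same build of an SH2 domain between SH3 domains, and their relative levels were expressed as the share of each in their summed level per kilobase. In WT libraries from the CD5/CD6 experiment the mean share of Grap2 went from 31.9% at 0 h to 7.69% at 4 h and 8.15% at 20 h, while that of Grap went from 46.5% to 74.7% and 75.6% and that of Grb2 from 21.5% to 17.6% and 16.3%. In WT cells of the LAT experiment the Grap2 share went from 26.5% to 10.1% and 14.3%, and the Grap share from 55.8% to 75.8% and 67.3%. The libraries of the stimulated groups and of the 0 h group did not overlap for the shares of Grap2 and Grap in either experiment. With 3 against 3 libraries an exact permutation test (two-sided) cannot go below p = 0.1, and that was the value of each of these differences (adjusted 0.135 over 27 comparisons).

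The second comparison asked what happened to the members without LAT. In Lat-/- cells the 4 h rise of Lcp2 was not detected, and Grap2, Themis, Plcg1 and Sos1 ended at 20 h at 2.32-fold to 4.22-fold their WT level, close to where they had started. At 0 h the members other than Lat differed from WT by at most 0.61 on the log2 scale. The Lat transcript itself was measured first as a check of the labels: Lat-/- libraries held 15.2, 11.6 and 19.1 CPM at 0 h, 6.79, 5.69 and 11.3 CPM at 4 h and 11.7, 9.91 and 17.2 CPM at 20 h, from 97 to 469 reads per library. All were below all WT libraries, with means at 6.14%, 2.56% and 13.2% of WT, so the group labels hold, and the floor of 3 reads, 0.169 CPM in the shallowest library, was exceeded everywhere. The remaining Lat reads fell from 0 h to 4 h, by 0.95 on the log2 scale (SE 0.16, edgeR adjusted p = 2.3e-07), and their source was not tested. Of the stimulation check genes, the cytokine gene Il2 had a mean of 71.9 CPM in WT cells at 20 h and 3.03 CPM in Lat-/- cells, Irf4, a transcription factor gene that follows TCR signal strength, 1017 and 87.8 CPM, and the growth regulator Myc 647 and 91.0 CPM. Irf4 and Il2 were lower in Lat-/- cells already at 0 h (log2 difference -2.09 ± 0.17 and -3.28 ± 0.87, edgeR adjusted p = 1.6e-32 and 0.029), and Myc was not called (-0.40, edgeR adjusted p = 0.28). From 0 h to 20 h Il2 and Irf4 rose within Lat-/- cells, by 7.21 and 4.25 on the log2 scale. A rise of 7.21 to a mean of 3.03 CPM puts Il2 in Lat-/- cells at 0 h under the floor of 3 reads. The sizes of the Il2 rise and of its 0 h difference from WT therefore rest on very few reads. The 20 h response was lower than in WT for Irf4 (-1.4) and Myc (-2.4), and for Il2 no difference was detected (-1.3 ± 2.18, edgeR interaction term, adjusted p = 0.93).

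Between the genotypes, 2 members were higher and 1 lower in Lat-/- cells at 0 h, against 1.59% of all genes called. Besides Lat these were Grap2 (log2 difference 0.54 ± 0.15, edgeR adjusted p = 0.018) and Themis (0.61 ± 0.15, edgeR adjusted p = 0.0045), and neither passed with filterByExpr (edgeR adjusted p = 0.25 and 0.18), which left Lat alone against 1.06% of genes. Without libraries 2 the differences were 0.34 and 0.41 (edgeR adjusted p = 0.76 and 0.48), and without libraries 1 they did not pass either (edgeR adjusted p = 0.13 and 0.10). At 4 h 4 were higher and 3 lower, against 23.9% of genes, and at 20 h 5 were higher and 2 lower, against 35.2%. Lat, the deleted gene, was among the lower at each time. Of the other 8 members, 4 were higher and 2 lower at 4 h, and 5 were higher and 1 lower at 20 h. With filterByExpr Grb2 was added at 4 h (8 of 9 called, against 49.1%) and Vav1 at 20 h (8 of 9, against 69.0%).

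**Figure D2:**
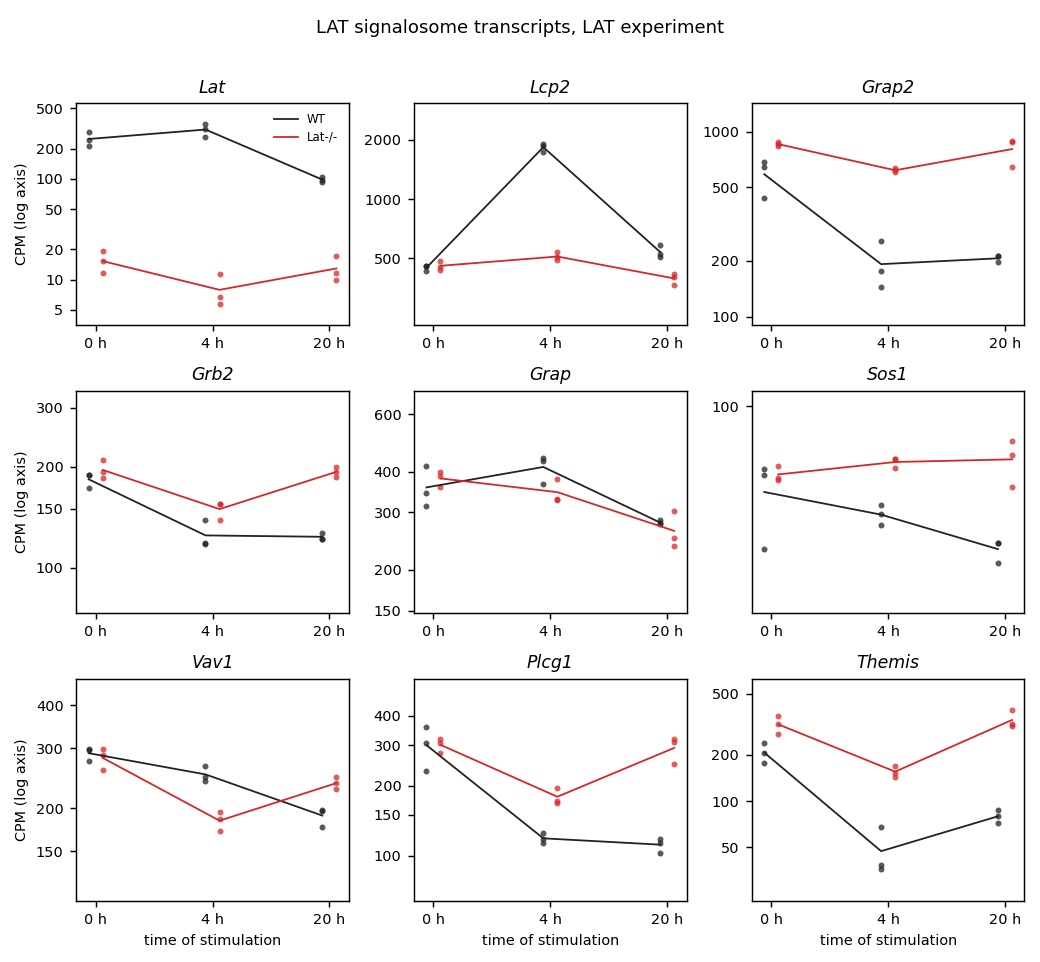
CPM of the 9 members (log axis) at 0, 4 and 20 h (spaced evenly, not to scale) in the LAT experiment; points are single libraries (3 per group), lines join the means, black is WT and red is Lat-/-. Lcp2 at 4 h and Grap2, Plcg1, Sos1 and Themis at 20 h are among the members and times at which the genotypes do not overlap. The share of all genes without overlap was not determined.

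Among the adaptors, Lcp2 in Lat-/- cells held 453, 488 and 436 CPM at 0 h, 539, 489 and 507 CPM at 4 h and 369, 404 and 416 CPM at 20 h. At 4 h these libraries lay far below the WT libraries, the lowest of which held 1732 CPM, with a log2 difference of -1.84 ± 0.15 (edgeR adjusted p = 2.0e-32). The response to 4 h of stimulation differed between the genotypes by -1.87 ± 0.21 (edgeR interaction term, adjusted p = 3.9e-17), and within Lat-/- cells it was 0.16 ± 0.15 (edgeR adjusted p = 0.63). Grap2 held 852, 881 and 831 CPM, 617, 631 and 604 CPM and 887, 880.2 and 644 CPM at the 3 times. Every stimulated Lat-/- library exceeded every stimulated WT library, by 1.68 ± 0.15 on the log2 scale at 4 h (edgeR adjusted p = 3.3e-27) and 1.96 ± 0.15 at 20 h (edgeR adjusted p = 9.9e-37), and the responses differed by 1.14 ± 0.21 at 4 h and 1.42 ± 0.21 at 20 h (edgeR interaction term, adjusted p = 1.0e-06 and 1.3e-10).

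Grb2 in Lat-/- cells was at 185, 209.8 and 192 CPM at 0 h, 139, 155 and 155 CPM at 4 h and 186, 200.1 and 193 CPM at 20 h. It exceeded WT in all libraries at 20 h, by 0.64 ± 0.15 (edgeR adjusted p = 7.5e-05), and the 20 h responses differed by 0.55 ± 0.21 (edgeR interaction term, adjusted p = 0.036). Grap, at 398, 387 and 359 CPM, 329.9, 379.7 and 328 CPM and 236, 250.0 and 303 CPM, did not pass against WT at any time, with log2 differences of 0.09, -0.26 and -0.08 (SE 0.15 at each). It was the single member that changed between 0 h and 20 h in Lat-/- cells, by -0.53 ± 0.15 (edgeR adjusted p = 0.0046, and 0.35 without libraries 1), where 10.7% of all genes were called.

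Among the enzymes, Plcg1 in Lat-/- cells held 318, 277 and 306 CPM at 0 h, 173, 197 and 169.7 CPM at 4 h and 317, 308 and 249 CPM at 20 h. It dipped at 4 h, by less than in WT, and at 20 h it was above every WT library, by 1.38 ± 0.15 on the log2 scale (edgeR adjusted p = 6.8e-19). The responses differed by 0.59 ± 0.21 at 4 h and 1.38 ± 0.21 at 20 h (edgeR interaction term, adjusted p = 0.035 and 8.1e-10). Sos1 was at 50.1, 51.2 and 57.1 CPM, 60.8, 55.9 and 61.2 CPM and 63.6, 71.9 and 47.0 CPM at the 3 times, so it did not fall, and it exceeded WT by 0.71 ± 0.16 at 4 h and 1.21 ± 0.16 at 20 h (edgeR adjusted p = 7.9e-05 and 7.2e-13). Its 20 h responses differed by 0.98 ± 0.23 (edgeR interaction term, adjusted p = 0.00011).

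Vav1 took another course, with 286, 298 and 259 CPM at 0 h, 172, 195 and 186 CPM at 4 h and 247, 238 and 227 CPM at 20 h in Lat-/- cells. At 4 h these libraries were below all WT libraries (log2 difference -0.45 ± 0.15, edgeR adjusted p = 0.012, and 0.26 without libraries 1), and at 20 h they were above them (0.32 ± 0.15), a difference that did not pass without the gene filter and did with it (edgeR adjusted p = 0.088 and, with filterByExpr, 0.0079). In Lat-/- cells its change from 0 h was -0.61 ± 0.15 at 4 h (edgeR adjusted p = 0.00053) and -0.25 ± 0.15 at 20 h (edgeR adjusted p = 0.40), and the step from 4 h to 20 h (0.37 ± 0.15, edgeR adjusted p = 0.11) passed in 2 of 9 alternatives, with filterByExpr (edgeR adjusted p = 0.018) and with DESeq2.

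Themis in Lat-/- cells held 273, 357 and 317 CPM at 0 h, 170.2, 153 and 144 CPM at 4 h and 316, 389 and 306 CPM at 20 h. It was above every WT library at each time, by 1.72 ± 0.15 on the log2 scale at 4 h (edgeR adjusted p = 4.4e-27) and 2.08 ± 0.15 at 20 h (edgeR adjusted p = 1.0e-39), a 4.22-fold difference. Its fall at 4 h was smaller than in WT, -1.02 ± 0.15, the responses differing by 1.11 ± 0.21 (edgeR interaction term, adjusted p = 3.8e-06), and at 20 h no change from 0 h was detected (0.10 ± 0.15, edgeR adjusted p = 0.86), the responses differing by 1.47 ± 0.21 (adjusted p = 5.1e-11).

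**Figure D3:**
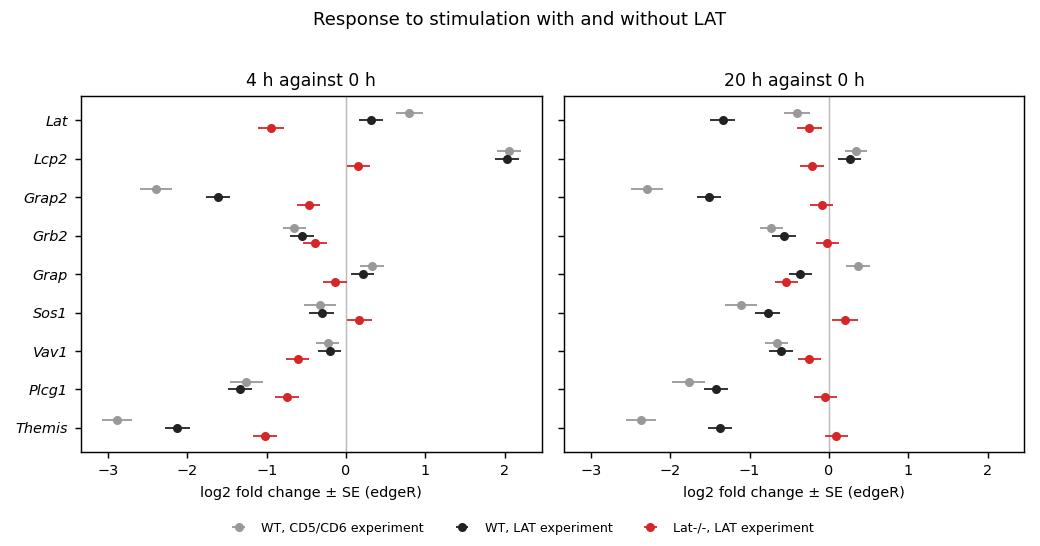
Log2 fold change (edgeR estimate, bars are 1 SE, 3 libraries per group) of the 9 members at 4 h (left) and 20 h (right) against 0 h, in WT of the CD5/CD6 experiment (grey), WT cells of the LAT experiment (black) and Lat-/- cells (red). At 4 h Lcp2 rises by 2.05 and 2.03 in WT cells and by 0.16 in Lat-/- cells, and at 20 h the Lat-/- points lie between -0.53 and 0.20.

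Counted over all 9, Lat-/- cells showed 5 falls and no rise at 4 h against 0 h, where 15.4% of all genes were called, 1 fall at 20 h against 0 h, and 3 rises and no fall at 20 h against 4 h, where 10.1% were called. The rises from 4 h to 20 h were Themis (1.12 ± 0.15), Plcg1 (0.70 ± 0.15) and Lat (0.70 ± 0.16). The first and the last count depended on the gene filter: with filterByExpr Grap2 was replaced by Grb2 among the 5 at 4 h (against 31.6%), and 6 members passed between 4 h and 20 h (against 19.2%), with Lat lost and Lcp2, Grb2, Grap and Vav1 added. Responses that differed between the genotypes numbered 5 at 4 h, against 15.0% of all genes, and 6 at 20 h, against 26.3%. Among the 8 members other than Lat, the deleted gene, 3 were higher and 1 lower at 4 h, and 5 were higher and 0 lower at 20 h. At 4 h Lat (-1.26 ± 0.22) and Lcp2 were the lower ones, and at 20 h all 6 were higher in Lat-/- cells, the residual Lat reads among them (1.10 ± 0.22). With filterByExpr 6 passed at 4 h (against 31.5%), by the addition of Vav1, and 8 at 20 h (against 54.1%), by the addition of Vav1 and Lcp2, Lcp2 lower in Lat-/- cells.

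Of the GRB2-family shares in Lat-/- cells, the mean share of Grap2 was 32.9% at 0 h, 28.9% at 4 h and 37.6% at 20 h, that of Grap 51.0%, 56.2% and 43.0%, and that of Grb2 16.1%, 15.0% and 19.4%. At 4 h and 20 h the Grap2 shares of the Lat-/- libraries were above, and the Grap shares below, those of all WT libraries (exact permutation p = 0.1, the smallest value that 3 against 3 libraries allow). Over the 3 times the mean Grap2 share thus ranged from 28.9% to 37.6% in Lat-/- cells and from 10.1% to 26.5% in WT cells of the same experiment.

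**Figure D4:**
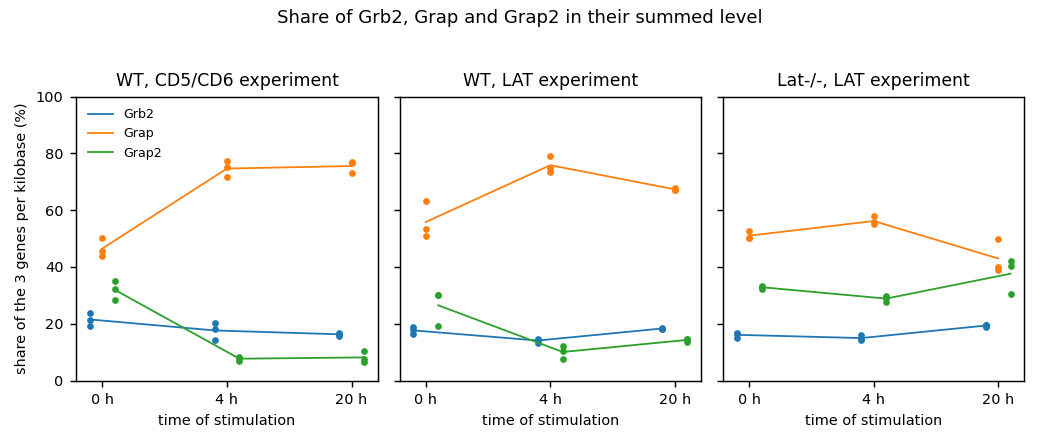
Share (%) of Grb2, Grap and Grap2 in their summed level per kilobase of exon at 0, 4 and 20 h; points are single libraries (3 per group) and lines join the means. In both WT groups the Grap share rises to a mean of 67.3% or more and the Grap2 share falls to 14.3% or less, whereas in Lat-/- cells the Grap2 share stays at 28.9% or more.

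The third comparison asked whether the loss of CD5, CD6 or both, receptors that associate with the TCR, changed the members. No member passed in any knockout at any time in the fit without a replicate block, and with it 1 did: of 81 differences from WT (9 genes, 3 genotypes and 3 times) 0 passed by edgeR and 0 by DESeq2, 5 had an unadjusted p under 0.05 by edgeR and 5 by DESeq2, and 0.0344% of all gene tests were called. The log2 differences ran from -0.61 to 0.29 with SEs of 0.14 to 0.21, and 75 of the 81 were within 0.3 of 0. The libraries of a knockout and of WT did not overlap in 4 of the 81, namely Lcp2 in Cd5-/-Cd6-/- cells and Grap2 in Cd5-/- cells at 4 h, Sos1 in Cd5-/- cells at 0 h and Themis in Cd5-/-Cd6-/- cells at 20 h. The share of all genes without overlap was not determined. With 3 against 3 libraries an exact permutation test gives such a separation p = 0.1, so no result is read from this count. The Cd5-/- group at 0 h holds a library that went against its label, and its other libraries also lay above WT for Sos1. Lcp2, the member with the largest response, differed from WT by between -0.18 and 0.09 over the 9 comparisons, Lat by between -0.18 and 0.24 and Grb2 by between -0.09 and 0.04.

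In the knockouts 2 members had risen in each genotype at 4 h and 5, 4 and 4 had fallen in Cd5-/-, Cd6-/- and Cd5-/-Cd6-/- cells (27.3% of all genes called over the 3 genotypes). At 20 h against 0 h 1, 1 and 2 had risen and 7, 7 and 6 had fallen (37.7% of genes), and from 4 h to 20 h 1, 0 and 0 had risen and 5 had fallen in each (30.9%). Of 54 tests of a difference in response from WT, 0 passed by edgeR and 0 by DESeq2, 3 had an unadjusted p under 0.05 by edgeR and 0 by DESeq2, and 0.00155% of all gene tests were called. With both 0 h libraries that went against their labels left out, 2 of 189 calls on the members changed: the rise of Grap at 20 h in Cd5-/- cells (log2 change 0.41, edgeR adjusted p = 0.052) and that of Lat at 4 h in Cd6-/- cells (0.35, edgeR adjusted p = 0.15) no longer passed. This rise of Lat was lost in other alternatives too, among them without libraries 1 or 2 (edgeR adjusted p = 0.46 and 0.22) and with DESeq2 (adjusted p = 0.067). This rise of Grap was also lost without libraries 2 (edgeR adjusted p = 0.32).

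The 6 differences from WT beyond 0.3 were all in Grap2 and Themis, 4 of them at 20 h. Grap2 was at 109.5, 86.1 and 64.8 CPM in Cd5-/- cells, 184, 120.0 and 97.0 CPM in Cd6-/- cells and 107, 83.2 and 58.0 CPM in Cd5-/-Cd6-/- cells, beside 162, 118 and 98.0 CPM in WT. Themis was at 44.9, 37.9 and 32.6 CPM, 63.9, 37.9 and 44.4 CPM and 38.6, 34.4 and 27.5 CPM in the same order, beside 58.1, 48.1 and 40.9 CPM in WT. All groups overlapped with WT for Grap2, and for Themis Cd5-/-Cd6-/- libraries were all below the WT libraries. The log2 differences in Cd5-/-Cd6-/- cells were -0.61 ± 0.19 for Grap2 (edgeR adjusted p = 0.98) and -0.55 ± 0.18 for Themis (edgeR adjusted p = 1.0), and in Cd5-/- cells -0.54 ± 0.19 and -0.35 ± 0.18. The other 2 were in Cd5-/- cells at 4 h, at -0.39 ± 0.19 for Grap2 and -0.41 ± 0.18 for Themis (edgeR adjusted p = 1.0 for both). There the Grap2 libraries of 82.3 to 96.6 CPM lay below the lowest WT library of 99.1 CPM. Calls were made under 2 alternatives. With a replicate block, which same-numbered libraries of these groups allow (their deviations correlated at over 0.1 in all 3 numbers), Grap2 passed in Cd5-/-Cd6-/- cells (-0.62 ± 0.14, edgeR adjusted p = 0.040), and in Cd5-/- cells it did not (edgeR adjusted p = 0.18). Without libraries 3 Grap2 passed in Cd5-/- cells (-0.52, edgeR adjusted p = 0.031) and Cd5-/-Cd6-/- cells (-0.56, edgeR adjusted p = 0.0095) and Themis in Cd5-/-Cd6-/- cells (-0.54, edgeR adjusted p = 0.028). In these genotypes the summed markers Trdc and Tcrg-C1 of γδ T cells were also higher than in WT at 20 h, at 9.61 to 9.88 CPM in Cd5-/- and 9.39 to 15.1 CPM in Cd5-/-Cd6-/- libraries against 3.94 to 5.24 CPM, and their part was not tested.

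**Figure D5:**
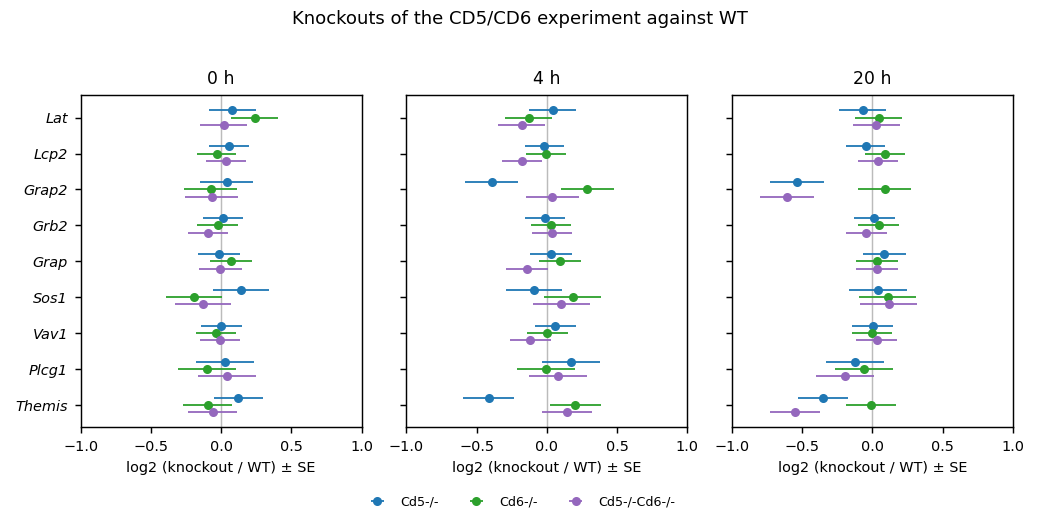
Log2 difference from WT (edgeR estimate, bars are 1 SE, 3 libraries per group) of the 9 members in Cd5-/-, Cd6-/- and Cd5-/-Cd6-/- cells at 0, 4 and 20 h. Most points lie within 0.3 of 0, and the 6 beyond it are Grap2 (-0.61 and -0.54) and Themis (-0.55 and -0.35) in Cd5-/-Cd6-/- and Cd5-/- cells at 20 h, and Grap2 (-0.39) and Themis (-0.41) in Cd5-/- cells at 4 h.

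The members split by the shape of their course over the 12 conditions of the CD5/CD6 experiment, described here by Pearson's r of mean log2 CPM, over conditions that share their 3 time points. Grap2 ran with Themis (r = 0.99) and Grb2 (r = 0.99), and Plcg1 with Grb2 (r = 0.96) and Vav1 (r = 0.94), while Grap ran against Plcg1 (r = -0.95) and Lcp2 was closest to Lat (r = 0.81). Over the 6 conditions of the LAT experiment the first of these held at r = 0.96 and 0.93, whereas Grap and Plcg1 were at r = -0.05 and Lcp2 and Lat at 0.58. Among 10085 genes with enough reads, those with the course most like a member were Erf for Lcp2 (r = 0.998, and 0.953 over the LAT experiment), St8sia4 for Grap2 (0.998 and 0.976), Usp3 for Themis (0.998 and 0.848), Arhgap30 for Plcg1 (0.999 and 0.906), Hsdl1 for Grb2 (0.998 and 0.933), Ly9 for Vav1 (0.994 and 0.962) and Kdm5a for Sos1 (0.994 and 0.992). For Lat and Grap the nearest genes, Cybc1 (0.995) and Crcp (0.975), had r of -0.25 and 0.39 in the LAT experiment. The conditions of the LAT experiment include the Lat-/- groups, where the deletion sets the Lat level. The values of r with Lat there, for Cybc1 and for Lcp2, therefore cannot show whether a shared course holds. With 3 time points many genes reach such values: between 767 and 1732 genes had r over 0.9 with each member.

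Proteins that work at or next to LAT were taken as a list of 21 genes. In WT cells at 20 h 4 of the 21 had risen and 11 had fallen in the CD5/CD6 experiment, and 5 had risen and 10 had fallen in the LAT experiment, with a median log2 change of -0.55 and -0.28, where 37.9% and 34.7% of all genes were called. At 4 h, 5 had risen and 9 had fallen in the first, and 6 had risen and 9 had fallen in the second, where 28.5% and 29.0% of all genes were called. With filterByExpr 4 had risen and 11 had fallen of 21 at 20 h in the CD5/CD6 experiment, against 74.2% of genes. In the LAT experiment 5 had risen and 10 had fallen of 20 tested, against 67.9%. The 20 h counts were thus near the share of all genes that passed this filter. At 4 h in the CD5/CD6 experiment 7 had risen and 9 had fallen with it, against 58.7%. The kinase gene Zap70, which phosphorylates LAT, rose by 1.89 and 1.69 on the log2 scale at 4 h. Genes past a 2-fold change at 20 h in both experiments were the adaptor genes Fyb (-2.80 and -2.10), Skap1 (-2.13 and -1.98) and Nck2 (-1.66 and -1.63), Rasgrp1, a Ras exchange factor that works beside SOS1 (-2.70 and -1.86), and the adaptor gene Sh3bp2 (1.43 and 1.55).

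In Lat-/- cells against WT, 0 of the 21 genes were higher and 2 lower at 0 h, 6 were higher and 6 lower at 4 h, and 10 were higher and 5 lower at 20 h, against 1.59%, 23.9% and 35.2% of all genes called. With filterByExpr, of 20 tested, 0 were higher and 2 lower at 0 h, against 1.06% of genes. At 4 h 6 were higher and 5 lower, against 49.1%, and at 20 h 10 and 5, against 69.0%. At 20 h Fyb (2.13), Rasgrp1 (1.99), Skap1 (1.83) and Nck2 (1.75) were higher, as were the ubiquitin ligase genes Cbl (1.09) and Cblb (1.08). Sh3bp2 (-1.85), the phosphatase gene Ptpn6 (-1.74), the adaptor gene Shb (-1.35) and the kinase gene Map4k1 (-1.26) were lower. At 4 h Fyb (1.34), Ubash3a (1.09) and Nck2 (1.06) were higher, and Sh3bp2 (-2.27), Zap70 (-1.80) and Ptpn6 (-1.43) were lower. Sh3bp2 was also lower at 0 h (-1.30). Gab2 was called at 4 h but held so few reads that no fold is given.

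Of 8 paralogs of the members (Lat2, Blnk, Clnk, Plcg2, Vav2, Vav3, Sos2 and Themis2), 1 had risen and 5 had fallen at 20 h among WT libraries of the CD5/CD6 experiment, and 2 had risen and 1 had fallen in the LAT experiment, where 37.9% and 34.7% of all genes were called. With filterByExpr 2 had risen and 5 had fallen of 7 tested in the CD5/CD6 experiment, against 74.2% of genes. In the LAT experiment 3 had risen and 1 had fallen of 5 tested, against 67.9%. Vav2, a broadly expressed relative of Vav1, rose in both, by 1.32 and 1.84 on the log2 scale, from a mean of 18.8 and 14.9 CPM to 47.1 and 53.4 CPM, as Vav1 fell. In Lat-/- cells at 20 h Vav2 was 2.62 lower than WT on the log2 scale. Plcg2, the phospholipase of B cells, fell by 1.54 in the CD5/CD6 experiment and rose by 2.91 in the LAT experiment, where it started at 0.912 CPM and not at 18.9 CPM. The B cell and myeloid marker sums at 0 h differed between the experiments in the same way, and their part was not tested. In Lat-/- cells Plcg2 was lower than WT by 2.28 at 0 h, 1.42 at 4 h and 4.27 at 20 h, and with filterByExpr the first 2 did not pass (edgeR adjusted p = 0.18 and 0.089). Themis2, the relative of Themis in other blood cells, fell in both experiments, with log2 changes of -5.82 and -2.83. The B cell and myeloid marker sums also fell by 20 h in the CD5/CD6 experiment, and their part in the falls of Themis2 and the other paralogs there was not tested.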

How the data were processed

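RNA was measured in 54 libraries of naive CD4+ T cells. As deposited, the tables hold raw counts per gene, which the authors made with bcl2fastq 2.17.1.14, STAR and featureCounts on GRCm38 (mm10) from stranded poly(A) libraries, with strand use and annotation release not given in the sources used here. The members and gene lists were chosen with earlier results of these data known. Each experiment was fitted alone with edgeR 4.0.16 (limma 3.58.1, R 4.3.3): TMM factors, genes with at least 1 read in total (32290 and 27780), quasi-likelihood tests over all groups, Benjamini-Hochberg adjustment over all genes and a threshold of 0.05. This fit drew the spread of each gene strongly toward the common trend, with prior degrees of freedom of 50.9 (CD5/CD6 experiment) and without limit (LAT experiment), against 4.82 and 6.46 with filterByExpr, so filterByExpr values stand beside the calls they change. On simulated counts of the LAT experiment (25219 genes, Lat-/- against WT at 20 h), edgeR called 87% of genes changed 2-fold and 97% of those changed 4-fold, with 48 unchanged genes called, against 83%, 96% and 12 with filterByExpr. For the difference in the 20 h response it called 46% and 95%, with 36 unchanged genes called, against 46%, 92% and 9 with filterByExpr. At 4 h, where no gene had been changed, it called 24 genes, against 0 with filterByExpr. Alternatives were other size factors, filterByExpr, DESeq2 1.42.0, a replicate block, the compared groups alone, each replicate left out, and both 0 h libraries that went against their labels left out. Named list genes passed the threshold and a 2-fold change at 20 h in WT of both experiments or in Lat-/- against WT at any time, at most 10 per comparison. Zap70 at 4 h in WT was named after its values were seen. Promoters came from RefSeq (8 of 9 members matched), and exon lengths from GENCODE. P-values and SEs of the reported edgeR fit measure a spread between libraries that is taken mostly from the trend over genes. In the LAT experiment, with prior degrees of freedom without limit, the spread of a gene's own 3 libraries does not set them. A marker each of naive CD4+ and B cells is not reported here and was left out of the marker sums. Same-numbered libraries deviated together in all 3 numbers for 28 of 66 pairs of groups in the CD5/CD6 experiment, 7 of the 9 pairs of a knockout and WT at 1 time among them, and for 2 of 15 in the LAT experiment, Lat-/- and WT at 0 h among them, so the numbers were taken to pair libraries in those comparisons only.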

Additional observations from a re-analysis of the deposited data

Results flagged for a closer look

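The response to stimulation differed between Lat-/- and WT cells, by the interaction term of the edgeR fit, for 5 members at 4 h and 6 at 20 h, the deleted gene Lat among them at both times. At 4 h the differences in log2 response (Lat-/- minus WT) were -1.87 for Lcp2, -1.26 for Lat, 1.14 for Grap2, 1.11 for Themis and 0.59 for Plcg1. At 20 h they were 1.47 for Themis, 1.42 for Grap2, 1.38 for Plcg1, 1.10 for Lat, 0.98 for Sos1 and 0.55 for Grb2. Both comparisons share the 0 h libraries. Those of Plcg1 at 4 h and Grb2 at 20 h passed in 6 of 9 alternatives and that of Sos1 in 8 of 9, and the others passed in all 9. No group had the 4 libraries needed to test for a library standing apart.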

How the results depend on the processing

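Of 3267 comparisons of a single member under an alternative, 3087 kept their side of the threshold, 88 no longer passed and 92 newly passed. The direction turned in 158, all of which passed in neither fit, and 0 that passed in either fit reversed. Of the 135 member calls, 100 held under every alternative. With a replicate block, which changed no other call of a knockout against WT, 1 of 81 knockout differences passed (Grap2 in Cd5-/-Cd6-/- cells at 20 h, edgeR adjusted p = 0.040) and 5 members changed in Lat-/- cells between 4 h and 20 h, where the reported fit gave 0 and 3. That last count was 6 with filterByExpr and 7 with DESeq2, and the count in Lat-/- against WT at 0 h, 3 as reported, was 1 with either. Leaving out each replicate in turn gave 3 to 5 changed members for Cd6-/- cells at 20 h against 4 h (3 without libraries 2), 0 to 3 for the knockouts against WT (3 without libraries 3), 3 to 5 for WT of the LAT experiment at 20 h against 4 h, and, for Lat-/- cells, 3 to 5 at 4 h against 0 h, 0 to 1 at 20 h against 0 h, 1 to 5 at 20 h against 4 h and 1 to 3 against WT at 0 h. In the LAT experiment the lowest count was the one without libraries 1, and the 0 h count was 1 without libraries 2 as well. Expressed over raw counts and not per kilobase, the Grb2 share turned in 5 differences. In percentage points these became 3.85 and 2.14 (WT of the CD5/CD6 experiment, 4 h and 20 h against 0 h), 0.799 (WT of the LAT experiment, 4 h against 0 h), and -3.70 and -4.90 (Lat-/- against WT at 4 h and 20 h). For the first of these the groups overlapped on both scales. The causes were not tested. With 3 libraries per group, SEs of 0.14 to 0.21 on the log2 scale in the knockout comparisons limited what could be detected.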
